A study of Mus musculus with 6 samples.

Results

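The Dlk1-Meg3 cluster on mouse chromosome 12 is an imprinted domain, in which the parental origin of a chromosome sets which genes are expressed. Its 6 genes described here were Dlk1, Meg3, Rtl1, Rian, Mirg and Dio3. They were chosen by name, and the methylation peaks were those whose midpoint lay between 50 kb before Dlk1 and 50 kb past Dio3 (GRCm38, chr12:109402485-110331097). The window held 90 of the 84111 peaks analysed. The first peak inside it, at chr12:109427986-109428318, had a fold enrichment of 12.3, and the nearest peak left outside, 2.02 kb before the window, had 6.51. At the other edge the last peak inside had a fold of 3.02, and the first outside, 1.86 kb past the window, had 26.7.

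The DNA came from primary chondrocytes, the cells of cartilage, cultured from the knee articular cartilage of mice at postnatal days 3 to 5. The study has 3 control cultures, labelled Dnmt1 flox with no zygosity given, and 3 conditional knockout cultures (cKO), labelled Prx1-Cre;Dnmt1 flox/flox. Prx1-Cre is a recombinase driven by a promoter active in limb bud mesenchyme, and Dnmt1 encodes the enzyme that copies CpG methylation onto newly made DNA. In MBD-seq, fragments carrying methylated CpG are pulled down with MBD2, a protein that binds this mark, and then sequenced. The labels do not say how completely Dnmt1 was deleted in the cultured cells, and expression of chondrocyte markers was not analysed here. All values come from 1 list of peaks. The submitters' name for this list calls its entries Dnmt1-mediated DNA methylation regions. How such regions were defined is not stated in the list, so it may not be a plain map of methylation. The peak names record that 3 datasets were merged before calling, without saying whether they were control or cKO. No peak has a value per culture, so control and cKO could not be compared, and no test or spread between animals stands behind any value below.

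In the known biology of this domain, Dlk1, Rtl1 and Dio3 are expressed mainly from the paternal chromosome. The noncoding RNAs Meg3, Rian and Mirg, with the microRNAs (miRNAs) and small nucleolar RNAs (snoRNAs) lying along them, are expressed from the maternal chromosome. The intergenic control region between Dlk1 and Meg3 (IG-DMR) is methylated on the paternal copy from the sperm onward. The Meg3 promoter region (Meg3-DMR) and a region in the 3′ part of Dlk1 (Dlk1-DMR) carry parental methylation that is set later, after fertilization. Dnmt1 keeps such marks through cell division.

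Each peak was described by 4 values. The fold is the authors' enrichment of the merged set over the caller's background. The pileup is the number of reads of the merged set over the peak's summit, and the background is the number of reads the caller set against it. Pileup and background were worked out from the fold and the p-value, on the assumption that fold is (pileup + 1)/(background + 1). The fourth is the width. The lowest background of the list, 6.37 reads, was shared by most peaks. A background above that value is called raised here. From which reads the caller took it is not stated in the list.

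The sequences at the starts of 3 genes are shown first because the peaks divide them. The start of Meg3 lay inside a peak, whereas the starts of Dlk1 and Dio3 had no peak within 5 kb of the start used in the promoter table. RefSeq promoter sequences of GRCm38.p6 were found for 5 of the 6 genes. They are given 5′ to 3′ with each CG dinucleotide in capitals. The Meg3 sequence runs over 300 bases, chr12:109540746-109541045 on the plus strand, from 250 bases before the start to 50 after it. For the protein-coding genes the 250 bases before the start are printed, chr12:109452573-109452822 for Dlk1 and chr12:110278980-110279229 for Dio3, both on the plus strand.
Meg3: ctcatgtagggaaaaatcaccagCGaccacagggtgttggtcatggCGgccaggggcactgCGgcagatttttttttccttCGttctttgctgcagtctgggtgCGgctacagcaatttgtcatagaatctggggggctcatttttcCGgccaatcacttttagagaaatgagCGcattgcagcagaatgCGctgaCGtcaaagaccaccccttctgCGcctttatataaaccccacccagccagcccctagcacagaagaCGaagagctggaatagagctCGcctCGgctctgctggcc
Dlk1: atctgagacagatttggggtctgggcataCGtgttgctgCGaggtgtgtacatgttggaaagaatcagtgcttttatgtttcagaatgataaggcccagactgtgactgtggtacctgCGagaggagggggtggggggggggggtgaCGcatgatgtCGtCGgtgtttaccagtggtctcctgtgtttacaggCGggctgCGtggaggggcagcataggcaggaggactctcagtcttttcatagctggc
Dio3: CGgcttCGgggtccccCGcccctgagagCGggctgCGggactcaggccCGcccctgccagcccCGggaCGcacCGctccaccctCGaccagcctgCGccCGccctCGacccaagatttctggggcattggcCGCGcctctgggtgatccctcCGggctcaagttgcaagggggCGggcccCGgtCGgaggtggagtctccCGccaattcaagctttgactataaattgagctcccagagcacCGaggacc

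Over the full 300 bases the Meg3 promoter held 13 CG, Dlk1 9, Mirg 10 and Dio3 25, against a median of 7 over the 24394 RefSeq promoters on covered sequence. The Rian promoter held 0 CG, and a second RefSeq start inside Meg3, at chr12:109545148-109545447, held 1. The motif TGCCGC, read by the imprinting factor ZFP57 when methylated, was searched on both strands. It occurred once in the Meg3 promoter and in none of the other member promoters, and 11.8% of all promoters held it. This letter match does not show binding. Of the 29 promoters in the window, 4 overlapped a peak by at least 1 bp, against 4.26% of all promoters. They were the Meg3 promoter and 3 alternative starts of the noncoding gene model Gm34081, which spans the intergenic region. Alternative starts of a gene can share a peak, as happened at Gm34081, so the promoters are not independent. The Dio3 and Dlk1 promoters lay 15.6 and 6.69 kb from the nearest peak.

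The peaks were not spread evenly over the genes. Dlk1, Meg3, Rtl1, Rian and Mirg had at least 1 peak midpoint in their bodies, and Dio3 had none. Among all genes of 10 to 60 kb on covered sequence, the size range of these 5 members, 63.8% had such a peak. Among genes of 1 to 3 kb, the range of Dio3, 26.0% had. Within 1 kb of a gene end a peak was found for Dlk1, Meg3 and Rtl1, against 22.2% of all genes. The peak at Rtl1 lies inside Meg3 as well, since the 2 gene models overlap, and it is the only peak of the window inside 2 members.

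**Figure D1:**
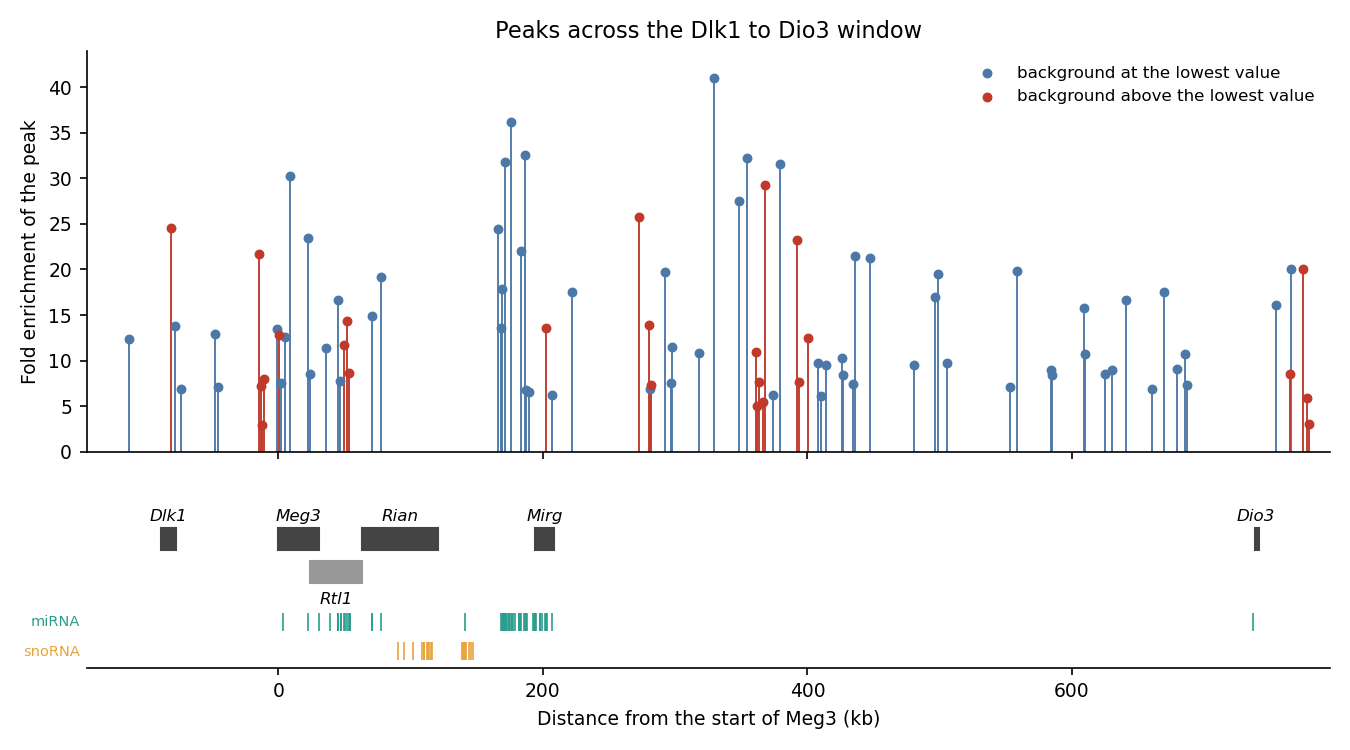
Fold enrichment of the 90 peaks (vertical axis) against distance from the start of Meg3 in kb (horizontal axis), with the 6 genes, miRNA genes and snoRNA genes drawn to scale below. Red marks the 25 peaks with a background above the lowest value and blue the others. The snoRNA genes and the surroundings of Dio3 carry no peak, and the highest fold, 41.0, lies between Mirg and Dio3.

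Dlk1, a Notch-related membrane protein that holds back adipocyte and other differentiation, had 2 peaks, both in its last part. The larger, at chr12:109459563-109460499, was 937 bp wide with a fold of 24.6, from a pileup of 235 reads (exact 95% Poisson interval 206 to 267, counting error only) over a background of 8.61. It ended 2.84 kb before the end of the gene model. The second, at chr12:109462811-109463153, had a fold of 13.8 from 101 reads over the lowest background and lay 0.183 kb before that end. The second alone fell in the last 2 kb of the gene, the range set for the Dlk1-DMR. That range was set from the end of the gene model and may miss the Dlk1-DMR if the model extends far at its 3′ end. Which of the 2 peaks lies in the Dlk1-DMR was therefore not settled. The gene table gives no exons, so neither peak was assigned to an exon. The nearest peak upstream ended 24.2 kb before the gene.

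The intergenic control region was taken as 10 to 15 kb before the start of Meg3. It held 4 peaks over 4.15 kb, and all 4 had a background above the lowest value, which 25.0% of the peaks of the list had. Peaks with a raised background often lay side by side, 18 of the 25 in the window in runs of 3 or more. The 4 neighbours are therefore not independent observations. From the Dlk1 side, the first (chr12:109526389-109526899) had 178 reads over a background of 7.27 and a fold of 21.7. The second (chr12:109527333-109527805) had 304 reads over 41.4 and a fold of 7.20. The pileup was thus highest at the second peak, while the fold there was lower than at the first. The third (chr12:109528281-109528449), only 169 bp wide, had 196 reads over 65.5. Its fold of 2.96 was the lowest of the 90 peaks, and its background the third highest. The fourth (chr12:109530364-109530540) had 65 reads over 7.30 and a fold of 7.95. Background therefore rose towards the middle of the region and fell again on the Meg3 side. For the pileups, the 95% Poisson intervals at the second peak (271 to 340 reads) and the fourth (50.2 to 82.8 reads) did not overlap. These are the highest and the lowest pileup of the 4 peaks, so this describes their range and is not a test.

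Meg3 is a long noncoding RNA, expressed like Rian and Mirg from the maternal chromosome. Its start lay in the widest peak of the window, chr12:109540559-109542402, at 1844 bp. That peak had 159 reads (95% Poisson interval 135 to 186) over a background of 11.5, a fold of 12.8, and its summit lay 0.738 kb inside the gene. Just before it, at chr12:109539642-109540480, an 839 bp peak had 98 reads over the lowest background and a fold of 13.4. These were the 2 peaks within 2 kb of the Meg3 start, the range set for the Meg3-DMR. The background over the promoter was above the lowest value but under those of the middle intergenic peaks. The other 5 peaks in the Meg3 body were at the lowest background. The strongest of them, at chr12:109549506-109550050, had the highest fold in the gene, 30.3, from 222 reads.

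**Figure D2:**
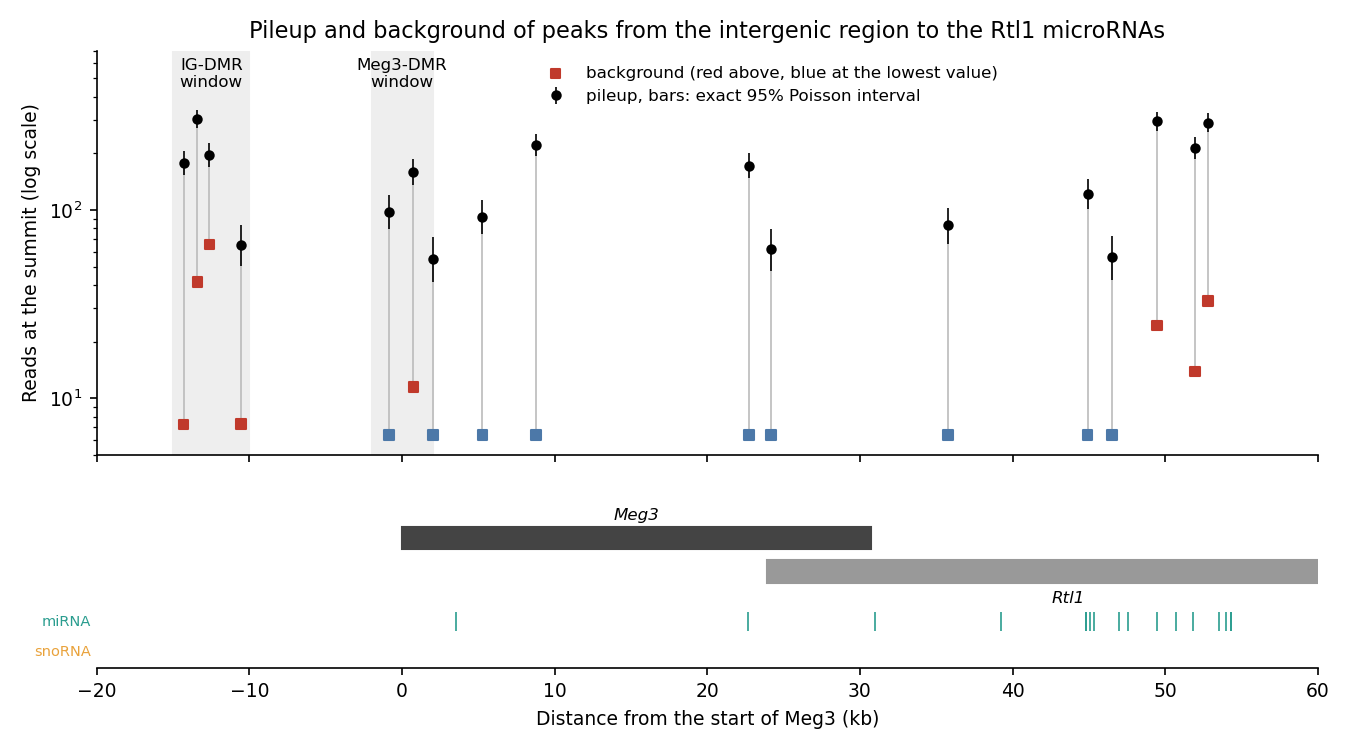
Pileup (black circles with exact 95% Poisson intervals) and background (squares, red above and blue at the lowest value) in reads on a log scale, against the distance of each summit from the start of Meg3 in kb. Grey bands are the ranges set for the IG-DMR and Meg3-DMR. Background rises to 41.4 and 65.5 reads inside the intergenic band, to 11.5 at the Meg3 start, and to between 13.9 and 32.8 at the 3 peaks over the Rtl1 miRNAs.

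Rtl1, a gene derived from a retrotransposon and needed in placenta and fetal vessels, is transcribed against Meg3 and Rian, and maternal miRNAs made from the opposite strand cut its RNA. The gene model held 7 peaks with folds from 7.73 to 16.7. Of these, 3 neighbouring peaks within 4.49 kb had a background above the lowest value, and each held a miRNA hairpin. The peak over Mir431 (chr12:109590202-109590805) had 296 reads over 24.4, a fold of 11.7, with its summit inside the hairpin. The peak over Mir127 (chr12:109591960-109593244), 1285 bp wide, had 213 reads over 13.9, a fold of 14.4, with its summit 47 bp past the hairpin. The peak over Mir434 (chr12:109593508-109594690), 1183 bp wide, had 291 reads over 32.8, a fold of 8.65, with its summit 710 bp from the hairpin. All 3 backgrounds were above that at the Meg3 start and below those of the middle intergenic peaks. Widths over 1 kb were found in 5 of the 90 peaks, against 3.92% of the list. The Meg3 start peak and those over Mir127 and Mir434 made up 3 of the 5.

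The mature miRNAs of these 3 hairpins, all on the plus strand, are shown because they lie in these peaks; capitals mark the seed, bases 2 to 8, and none of the 6 seeds is shared with another miRNA of the window.
miR-431-5p: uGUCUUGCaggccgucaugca
miR-431-3p: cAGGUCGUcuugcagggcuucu
miR-127-5p: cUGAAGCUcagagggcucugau
miR-127-3p: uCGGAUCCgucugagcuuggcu
miR-434-5p: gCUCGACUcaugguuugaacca
miR-434-3p: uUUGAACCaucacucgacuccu

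Rian hosts snoRNAs, and it had the fewest peaks for its size among the 5 members with any. Its 2 peaks gave 3.46 per 100 kb, against 17.7 in Rtl1, 18.4 in Dlk1, 19.5 in Meg3 and 13.8 in Mirg. Density over all chromosomes of the list was 43.0 peaks per Mb. Rian was thus a little below the list, and the other members with peaks were above it. The densities of Rian, Dlk1 and Mirg rest on 2 peaks each, and the differences from the list were not tested. Both Rian peaks were at the lowest background, and both held a miRNA hairpin. The peak at chr12:109611400-109611709 had its summit inside Mir341, with 109 reads and a fold of 14.9. The peak at chr12:109618013-109618450 had its summit 12 bp from Mir370, with 140 reads and a fold of 19.1. After the latter no peak was listed for 88.6 kb (chr12:109618451-109707014), the longest gap of the window. Over the list, 13.1% of the gaps between neighbouring peaks were over 50 kb. All 19 snoRNA genes of the window and Mir882 lay in the gap of 88.6 kb. Part of these snoRNA genes, from AF357428 on, lay past the end of the Rian gene model. Accordingly 0 of the 19 snoRNA genes overlapped a peak, against 1.16% of the 861 snoRNA genes on covered sequence, and 0 had a peak within 1 kb, against 5.69%. The exact 95% binomial interval of this share reaches 17.6%, which includes the share over the list. That interval treats the 19 genes as independent, which they are not, since they lie in the same gap.

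The 73.3 kb between Rian and Mirg, whose first part lies in this gap, hold 30 miRNA genes: Mir882 in the gap, and past it the others, from Mir379 on. Peaks between Rian and Mirg were 9, all past the gap and all at the lowest background, and their median fold of 22.0 was the highest of any segment with more than 1 peak. The strongest, at chr12:109716944-109717478, held Mir666 and Mir543 and had 266 reads and a fold of 36.2. The peak at chr12:109726914-109727586, over Mir487b, had a fold of 32.6. The peak at chr12:109712320-109712864, with its summit inside Mir323, had a fold of 31.7 and also touched Mir1197 and Mir758. These 3 peaks were among the 5 with the highest fold in the window. In all, 6 of the 9 held a miRNA hairpin.

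Mirg, the noncoding host transcript of the last miRNAs of this array, had 2 peaks. The peak at chr12:109742923-109743531 covered Mir409, Mir412 and Mir369, with its summit inside Mir409, and had 243 reads over a background of 17.0 and a fold of 13.6. It was the only peak of the 11 between the Rian end and the Mirg end with a background above the lowest value. The second, at chr12:109748010-109748073, was 64 bp wide, the narrowest of the window, with 45 reads and a fold of 6.24.

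**Figure D3:**
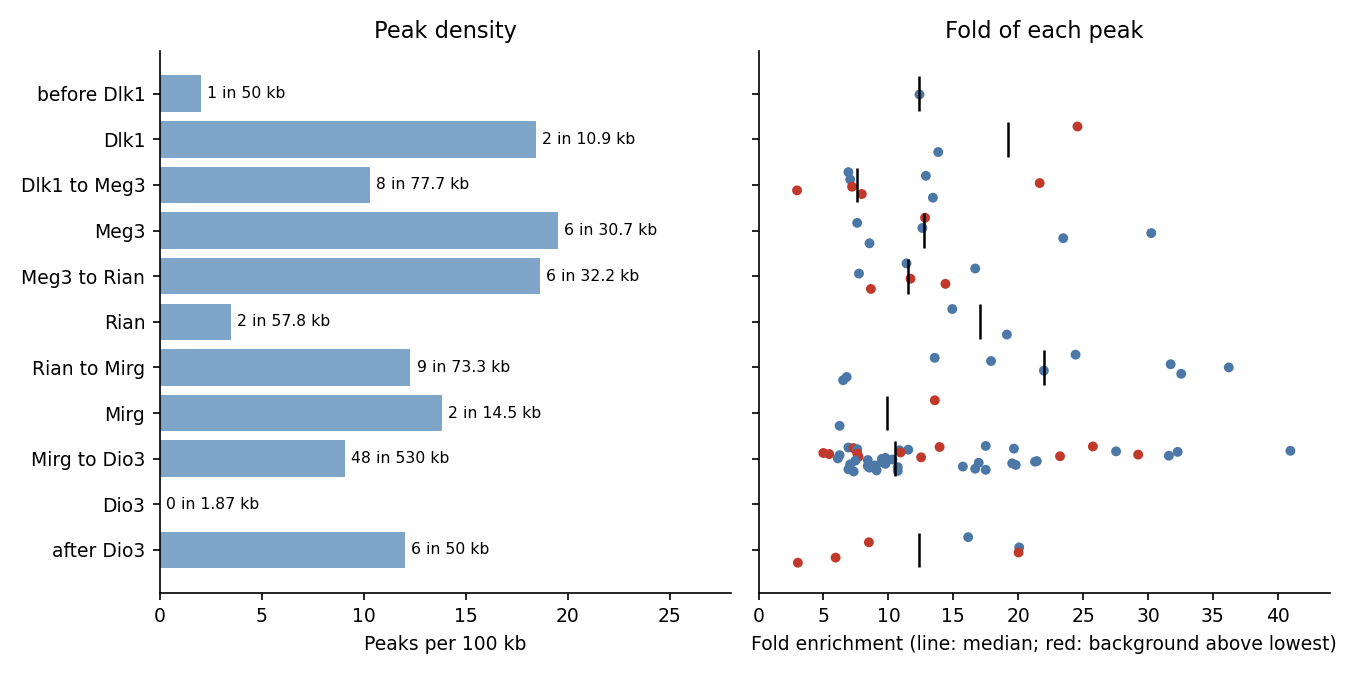
Peaks per 100 kb (left, bars from 0, with the number of peaks and the length of each segment) and fold of each peak (right, points; black lines are medians; red marks a background above the lowest value) in 11 consecutive segments of the window. Meg3 has the highest density, 19.5 per 100 kb, Rian has 3.46 and Dio3 none, and the segment from Rian to Mirg has a median fold of 22.0.

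Taking the miRNA genes as a group, 22 of the 61 in the window overlapped a peak by at least 1 bp (36.1%, exact 95% binomial interval 24.2% to 49.4%), against 14.1% of all 920 miRNA genes on covered sequence. Neighbouring genes can share a peak, so they are not independent. The window as a whole was also denser in peaks, with 96.9 per Mb against 43.0 over all chromosomes of the list. Peaks covered 4.27% of its length, against 1.97%. The shares of miRNA genes were not adjusted for this, so an excess particular to miRNA genes was not tested. The 22 hairpins lay in 14 peaks, and 19 of them lay wholly inside. In 13 of the 14 peaks the summit was inside a hairpin or within 50 bp of it. Of the 101 peaks outside the window that overlapped a miRNA gene, 38.6% had such a summit. The median widths of the 2 sets were 540 and 528 bp. This summit measure was chosen after the values were seen. Peaks with a hairpin had a median fold of 17.3 and the other 76 peaks of the window 10.5. Their median widths also differed, 540 bp with a hairpin and 340 bp without. A wider peak can touch a hairpin more easily, and the folds were not adjusted for width. A peak with a background above the lowest value overlapped 6 of the 61 miRNA genes, against 2.72% of all miRNA genes. These 6 were Mir431, Mir127, Mir434, Mir409, Mir412 and Mir369.

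MBD2 binds methylated CG, so the CG content of the hairpins was counted. In the window, 58 of the 61 miRNA genes had a RefSeq hairpin sequence. The 21 of these that overlapped a peak held a median of 4 CG (range 1 to 12), and 15 of them (71.4%) held 3 or more. The 37 without a peak held a median of 2 (range 0 to 14), and 8 (21.6%) held 3 or more. Outside the window the medians were 2 over 89 hairpins with a peak and 1 over 586 without, and 40.4% and 21.2% held 3 or more. Hairpins in peaks thus held more CG than those without, in the window and outside it, and the limit of 3 was chosen with the data at hand. Only the hairpins were read, not the whole peaks, and the counts were not adjusted for length. Mir337 and Mir3544 overlap on opposite strands, so their shared CG counted for each. Whether CG content accounts for the peaks was not tested. Hairpin sequences with many CG are shown with CG in capitals: those with a summit inside them, Mir341 (12 CG), Mir323 (8 CG) and Mir431 (8 CG), and Mir1247 beside Dio3, which held 14 CG and had no peak. Mir1247 is on the minus strand and the others on the plus strand.
Mir341: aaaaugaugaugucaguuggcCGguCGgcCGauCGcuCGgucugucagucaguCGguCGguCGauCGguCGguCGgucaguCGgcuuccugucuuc
Mir323: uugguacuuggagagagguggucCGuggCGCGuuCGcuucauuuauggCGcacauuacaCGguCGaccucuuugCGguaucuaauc
Mir431: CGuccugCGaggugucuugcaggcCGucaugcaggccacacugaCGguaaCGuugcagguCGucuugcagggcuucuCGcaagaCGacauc
Mir1247: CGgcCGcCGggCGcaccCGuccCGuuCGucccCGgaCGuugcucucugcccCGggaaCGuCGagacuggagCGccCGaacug

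Seeds were grouped over the 114 mature sequences of the window. They formed 104 distinct seeds, of which 10 were shared, each by 2 sequences. Among hairpins in peaks, miR-379-3p and miR-411-3p shared the seed AUGUAAC; their peaks, at folds of 13.6 and 17.9 over the lowest background, were neighbours. The pair miR-1197-5p and miR-758-5p shared the seed GGUUGAC and lay in the same peak, that over Mir323. The sequences are shown with the shared seed in capitals.
miR-379-3p: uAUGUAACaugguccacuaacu
miR-411-3p: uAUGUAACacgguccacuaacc
miR-1197-5p: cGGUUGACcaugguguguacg
miR-758-5p: uGGUUGACcagagagcacacg

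Dio3, the deiodinase that inactivates thyroid hormone, had no peak in its body or within 1 kb of its ends. It lay with its antisense RNA Dio3os and Mir1247 in a gap of 66.6 kb (chr12:110228301-110294907). Gaps over 50 kb made up 13.1% of those between neighbouring peaks of the list. The nearest peak began 13.8 kb past the gene, at chr12:110294908-110295316, with 118 reads over the lowest background and a fold of 16.1. On the other side the nearest peak ended 50.9 kb before it. The promoter of Dio3os held 53 CG in 300 bases, at the 99.5th percentile of all promoters, and had no peak. The list gives only peaks past its threshold (lowest −log10 q 20.004), so a site without a peak may carry signal below it, and methylation there was not measured to be absent. The coverage of sites outside peaks is unknown.

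Between Mirg and Dio3, over 529.8 kb with no protein-coding gene in the table, lay 48 peaks, 11 of them with a background above the lowest value. The highest fold of the window, 41.0 from 301 reads, was at chr12:109870326-109870935, outside any gene. The highest pileup, 606 reads, was at chr12:109902882-109903575, over the second highest background, 120.7 reads, which gave a fold of 4.99. That peak was part of 5 neighbouring peaks within 7.30 kb that all had a raised background. The highest background of all, 124.3 reads, was past Dio3 in the pseudogene Gm9063 (chr12:110319717-110320182), with 378 reads and a fold of 3.02. Raised background was thus also found outside the 3 control ranges. In the window, 5 runs of 3 or more neighbouring peaks held 18 of the 25 such peaks. The intergenic control region and the Rtl1 miRNAs account for 2 of these runs.

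**Figure D4:**
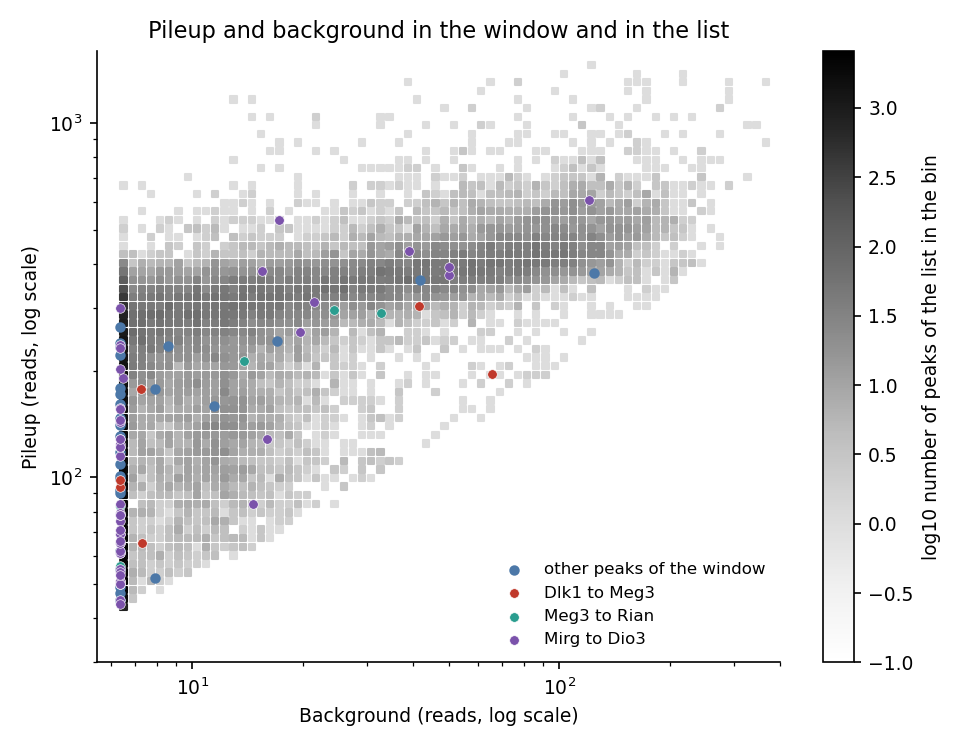
Pileup against background, both in reads on log axes, for the peaks of the window (coloured points, by segment) over the peaks of the list in bins within the axes (grey squares, darker for more peaks). The intergenic peak with 196 reads over 65.5 has the lowest fold of the window, the peaks with backgrounds of 120.7 and 124.3 reads lie farthest right, and the peaks at the lowest background form the column at 6.37 reads.

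Set beside the list, the window held more peaks per Mb, with peak values whose intervals include those of the list. Density was 96.9 peaks per Mb, against 40.5 on chromosome 12 and 43.0 over all chromosomes of the list. Median fold was 11.6 (quartiles 7.70 and 19.4; 95% order-statistic interval of the median 9.50 to 13.8), against 13.2 for the list. Median width was 371 bp (interval 310 to 438 bp), against 415 bp. Both intervals include the median of the list. A background above the lowest value was found in 25 peaks (27.8%, exact 95% binomial interval 18.9% to 38.2%), against 25.0% of the list. For 18 peaks (20%) the background reached 2 times the lowest or more, against 16.1%. A fold under 5 was found in 3 peaks, against 3.14%. The interval for the raised background includes the share over the list. Within the window, peaks with a raised background had a median pileup of 257 reads and a median width of 609 bp, against 90 reads and 327 bp at the lowest background. The whole list showed the same contrast, with 331 reads and 646 bp against 98 reads and 355 bp.

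**Figure D5:**
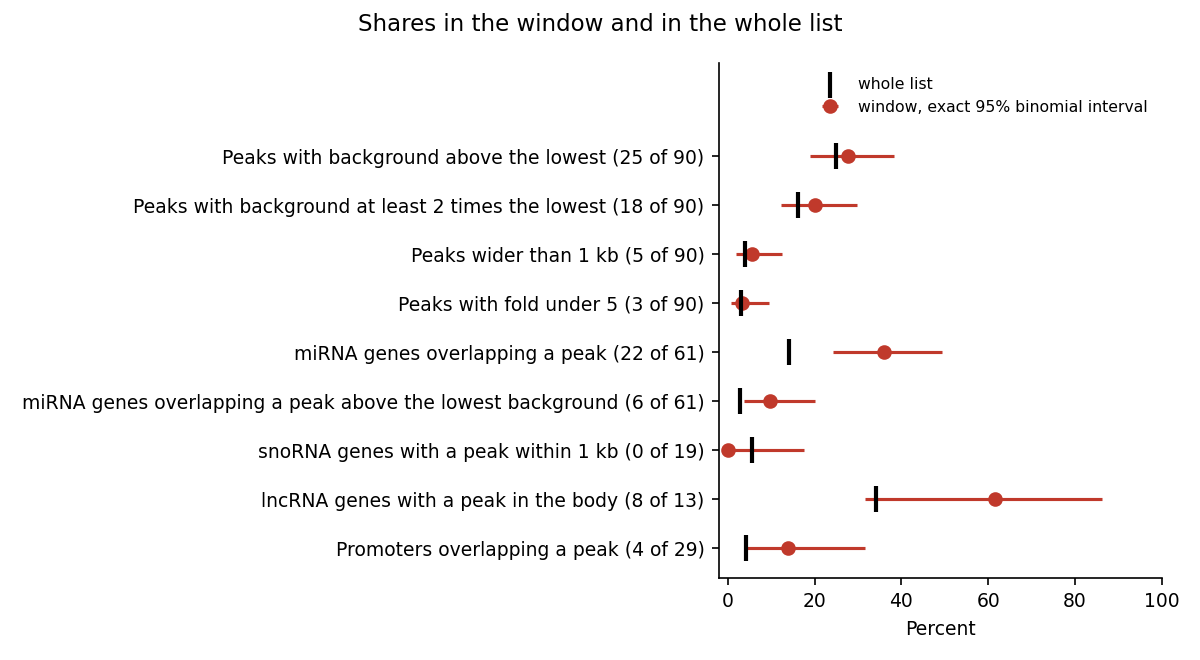
Percent of peaks, genes or promoters in the window (red, with exact 95% binomial intervals that cover counting error only) and in the whole list (black bars). miRNA genes overlapping a peak stand at 36.1% against 14.1%, peaks with a background above the lowest value at 27.8% against 25.0%, and lncRNA genes with a peak in the body, 8 of 13, against 34.2%. The shares of genes and promoters are not adjusted for length or for the higher peak density of the window. Neighbouring genes and alternative promoters can share a peak or a gap, so they are not independent, and the intervals ignore this.

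Windows cut by the same rule around 2 other imprinted loci were set beside it, with no test of the differences. The Gnas window on chromosome 2 held 20 peaks in 162.4 kb (123.1 per Mb), of which 14 had a background above the lowest value, with a median fold of 4.60. The Igf2r to Airn window on chromosome 17 held 20 peaks in 277.5 kb (72.1 per Mb), of which 5 had, with a median fold of 9.50. The highest backgrounds were 93.7 and 73.4 reads. Peak density in both windows was thus also above that of the list. The share of raised backgrounds in the Dlk1 to Dio3 window, 27.8%, was thus close to that of Igf2r to Airn (25.0%) and below that of Gnas (70.0%). Of 32 other imprinted genes listed for comparison, 26 lay on covered sequence. All 26 had a peak in the body, against 43.0% of all genes. Of the 26, 21 had a peak there with a background above the lowest value, and 12 had such a peak within 1 kb of a gene end. The 26 were not matched to other genes by length, and Trappc9 alone had 40 peaks. Genes of this list can share a peak, so they are not independent: Zrsr1 and Commd1 each had 1, with the same fold of 5.58. Among the 6 genes of the Dlk1-Meg3 cluster, Dlk1, Meg3, Rtl1 and Mirg had a peak with a raised background in the body, and Rian and Dio3 did not. Of all genes of 10 to 60 kb, 14.6% had one, and 4.27% of all genes had one at an end. Zdbf2, another gene whose control region is methylated on the paternal copy, had 7 peaks in the body, 2 of them with a raised background, and 1 at a gene end, also raised.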

How the data were processed

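Methylated DNA from 6 chondrocyte cultures (3 control, 3 cKO) was enriched with MBD2 and sequenced. The submitters' processing notes name fastp, Bowtie2 and MACS2 and the build mm10 (GRCm38), with no version or role. The deposited peak list follows the narrowPeak layout under other column names: a fold ratio, a −log10 p and a −log10 q per peak, and a score, which the values show to be 10 times the −log10 q cut to a whole number. Peak names in the deposited list carry the output of a Samtools merge of 3 datasets. The depth of each culture is unknown. The list as analysed ended in 1 incomplete line, left out; chromosomes 7, 8, 9, X and Y and the rest of chromosome 6 were not analysed here.

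Pileup and background were solved for a whole-number pileup from the fold and a Poisson upper-tail p. Of all peaks 99.97% matched within 1% of the spacing between pileups, and all 90 peaks of the window did; the solver was tested on simulated data. Gene positions and promoter and miRNA sequences came from RefSeq (GRCm38.p6), printed 1-based. Intervals are exact (Poisson or Clopper-Pearson) and cover counting error only, since reads without molecular identifiers are not independent molecules. Python 3.11.15, numpy 2.4.6, pandas 2.3.3, scipy 1.17.1 and matplotlib 3.10.9 were used. Control and cKO were not tested against each other, since no value belongs to a single culture. Named were all 6 members, the peaks of their bodies and of the 3 control ranges (for members with more than 5 peaks the widest, the highest in fold and the highest in background), the 5 peaks highest in fold and in background, and miRNA and snoRNA genes near a peak. The genes and lists were chosen with earlier results of these data known.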

Additional observations from a re-analysis of the deposited data

How the results depend on the processing

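No paired analysis was possible because peaks have only pooled values, so replicates could be neither blocked nor left out, and no comparison of control with cKO could be computed or varied. A stricter limit on significance moved the values most, by construction, since it removes the weaker peaks. At a −log10 q of at least 100 the window held 44 peaks, with a median fold of 19.6, a median width of 551.5 bp and 43.2% above the lowest background, and 1 of the 6 genes had a peak within 1 kb of an end. At a −log10 q of at least 50 the median fold was 16.4 and the median width 506 bp. The remaining alternatives (merging within 500 bp, window flanks of 0 and 100 kb, placement by summit or by any overlap, other distances from gene ends, and a background of at least 2 times the lowest) changed the number of peaks to between 79 and 102 and the number of genes with a peak near an end to between 3 and 4, and left the medians and the share within their 95% intervals. The number of genes with a peak in the body was 5 under every alternative run for it. Changes were judged against order-statistic intervals for medians and binomial intervals for the share.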

Other observations

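Noncoding gene models fill part of the interval around the 6 genes. Of the 13 other lncRNA genes in the window, 8 had a peak midpoint in the body, against 34.2% of all lncRNA genes. These shares were not matched by length. The 13 run from 1.32 to 47.0 kb, and 63.8% of all genes of 10 to 60 kb had such a peak. The window was also denser in peaks than the list, with 96.9 against 43.0 per Mb. The largest of the 13, Gm34081, is 47.0 kb long, spans the intergenic control region and held 7 peaks. Gm34554, 25.6 kb long, held 3 peaks, among them 2 neighbours with pileups of 382 and 393 reads over backgrounds of 15.5 and 50.2. Gm34719, 41.5 kb long, held no peak midpoint, and a gap of 47.5 kb between peaks covers nearly all of it. The pseudogene Gm3379 held a peak with a fold of 32.3, the fourth highest of the window, from 237 reads at the lowest background.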
